A study of Mus musculus with 32 samples.

Results

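Gastrocnemius (GAS) muscle taken 3 d after the sciatic nerve was cut was compared with GAS muscle at day 0, using RNA-seq expression values from 4 muscles per time point. These 8 samples belong to a series of 32 that runs over 8 time points up to 28 d. Of the 33397 genes listed, 17545 were tested, namely those that reached 0.1 FPKM in 4 or more of the 8 samples. FPKM is the number of sequenced fragments scaled to transcript length and library size. Fold changes are differences of mean log2(FPKM + 1), so the change of a gene at a low level is understated.

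The mice were male C57BL/6J animals aged 6 to 8 weeks by the study's methods (strain C57BL/6 in the labels), with no transgene or gene deletion in these 8 samples. The left hind limb was denervated by cutting the sciatic nerve, and the study compared such muscles with a sham group. The sample labels enter the nerve transection as the treatment at every time point, day 0 included, so whether the day 0 mice had a sham operation is not given by the labels. Day 0 samples are written C1 to C4 and day 3 samples D3a to D3d, as in the expression table, and these letters match no sample title. The study describes its samples as biologically independent, and p-values measure the spread between these samples.

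A muscle fibre that loses its nerve stops contracting, and within days it returns to a programme resembling that of developing muscle. The myogenic factor myogenin rises, acetylcholine receptors that were confined to the synapse are again made along the whole fibre, and the fetal γ subunit replaces the adult ε subunit. Contractile protein is then broken down by ubiquitin ligases and the proteasome, while Schwann cells and macrophages clear the cut axons.

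Recovered fragments per sample ranged from 14925278 to 15874346 at day 0 and from 15318064 to 16875456 at day 3. Muscle fibre genes gave a summed FPKM of 23637 to 27175 at day 0 and 14076 to 17159 at day 3 over the 7 markers, so the tissue matched its label. The labels' extraction text speaks of retinas. Of 10 photoreceptor and retina genes 9 were listed, with a summed FPKM of at most 0.461 in any of the 8 samples. Mitochondrial transcripts took 14.5% to 18.2% of fragments at day 0 and 9.95% to 13.5% at day 3, and the 20 most abundant genes took 31.4% to 34.4% and 18.9% to 23.9%.

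One day 3 sample, D3a, stood apart from the other 3. The first principal component separated the groups (day 0 at -43.9 to -40.1, day 3 at 37.9 to 44.3), and the second placed D3a at 37.5 with the other 7 samples between -19.3 and 3.58. The correlation of D3a with the other day 3 samples over 11586 genes was 0.961 to 0.977, against 0.985 to 0.989 among those 3 and 0.987 to 0.990 among the day 0 samples. Counts that moved by more than 1.5 times when D3a was left out are given with and without it. In whole muscle, fewer cells of a type and less RNA per cell cannot be told apart.

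**Figure D1:**
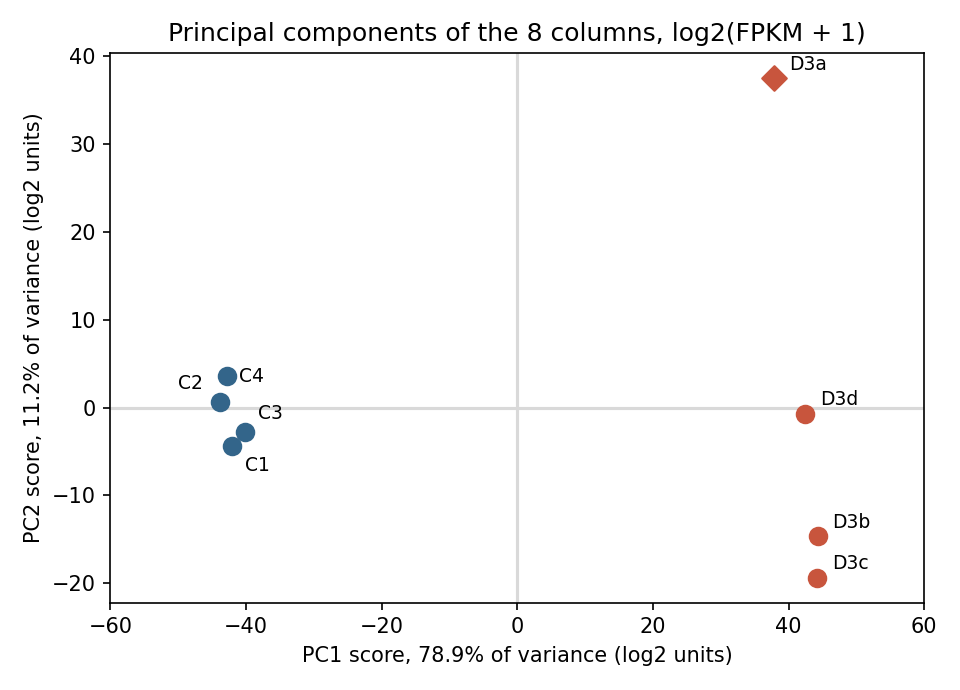
Scores of the 8 samples on the first and second principal components of log2(FPKM + 1) over 11586 genes, with day 0 in blue and day 3 in red. Day 3 lies at 37.9 to 44.3 on the horizontal axis and D3a (diamond) lies at 37.5 on the vertical axis, above every other sample.

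Between day 0 and day 3, 2854 genes rose (16.3% of those tested) and 1315 fell (7.5%), together 23.8%, by limma with a Benjamini-Hochberg adjusted p under 0.05 and at least a 1.5-fold change. In 2608 of the genes that rose all 4 day 3 samples lay above all 4 day 0 samples, and in 1265 of those that fell they all lay below. Among all genes tested, regardless of the call, the groups did not overlap in 28% with day 3 higher and 14.9% with day 3 lower. The balance of rises and falls depended on the scaling. With median-ratio scaling between samples 1704 genes rose (9.71%) and 2052 fell (11.7%), and the median fold change over all genes went from 0.11 to -0.03. All 1704 were among the 2854, and all 1315 that fell also fell with median-ratio scaling. The scaling divided day 3 samples by 0.970 to 1.19 and day 0 samples by 0.891 to 0.946, which lowers fold changes throughout. This nesting is therefore largely set by the scaling and is not a separate check. Without D3a, 3388 genes rose (19.3%) and 1238 fell (7.06%), and 2754 and 1178 of these were also called with all 8 samples.

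At day 3 the acetylcholine receptor genes showed the exchange of subunits. Chrna1, the α subunit, stood at 4.11, 3.03, 3.41 and 3.68 FPKM in C1 to C4 and at 24.6, 38.5, 61 and 72 FPKM in D3a to D3d. Chrng, the fetal γ subunit, was at 0 to 0.0966 FPKM at day 0 (0 to 6 fragments) and at 3.83, 6.16, 11 and 15 FPKM in D3a to D3d. Chrne, the adult ε subunit, went the other way, from 6.72, 6.38, 8.30 and 9.06 FPKM to 0.850, 1.03, 1.09 and 2 FPKM. Chrng was under 0.1 FPKM in every day 0 sample and so was tested only because its day 3 values are high. Mir7212, Shh, Gdf5, Il1b, Nlrp3 and S100a8 below also did not reach 0.1 FPKM in all 4 day 0 samples. They too needed their day 3 values to pass the filter, and Nlrp3 needed a day 0 value as well. In these 3 subunit genes no day 3 sample overlapped a day 0 sample, and D3a held the lowest of the day 3 values. The fold changes were 3.35 ± 0.29 (SE, n = 4 and 4) for Chrna1 (limma adjusted p = 1.48e-05), 3.12 ± 0.32 for Chrng (adjusted p = 4.55e-05) and -1.96 ± 0.17 for Chrne (adjusted p = 1.45e-05). Chrnd, the δ subunit, rose by 2.73 and Chrnb1, the β subunit, rose by 2.14, so that 4 of the 5 subunit genes rose and 1 fell. For a single gene whose groups do not overlap, an exact two-sided permutation test over the 70 assignments gives p = 0.029, the smallest it can give with 4 against 4.

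Myogenin and its relatives bind the E-box, a motif written CANNTG that reads the same on both strands. The 250 bases before the RefSeq start site of Myog and of 3 receptor genes are shown because the Myog protein acts through this motif and these genes changed at day 3. Myog, Chrna1 and Chrng rose and Chrne fell. The capitals mark every CANNTG. Sequences are from RefSeq, build GRCm38.p6, 5′ to 3′ on the strand of the gene, and 5 of the 6 genes looked up had an entry (Chrnd had none). GENCODE, whose gene IDs the FPKM values follow, places the Chrng gene at chr1:87204657-87212694, so the window before its RefSeq start lies inside that gene, and the windows of Myog, Chrnb1 and Chrne reach a few bases into theirs.
Myog, chr1:134289754-134290003, plus strand: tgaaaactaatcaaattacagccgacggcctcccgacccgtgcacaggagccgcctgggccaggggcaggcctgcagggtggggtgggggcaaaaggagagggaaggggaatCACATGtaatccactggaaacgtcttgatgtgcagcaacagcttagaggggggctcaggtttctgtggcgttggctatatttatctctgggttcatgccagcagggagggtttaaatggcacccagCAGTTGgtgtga
Chrna1, chr2:73580339-73580588, minus strand: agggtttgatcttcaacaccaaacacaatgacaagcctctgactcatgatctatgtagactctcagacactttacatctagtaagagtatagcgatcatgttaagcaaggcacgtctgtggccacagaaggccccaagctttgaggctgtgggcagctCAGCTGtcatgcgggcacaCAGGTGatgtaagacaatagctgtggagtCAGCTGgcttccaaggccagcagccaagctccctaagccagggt
Chrng, chr1:87205561-87205810, plus strand: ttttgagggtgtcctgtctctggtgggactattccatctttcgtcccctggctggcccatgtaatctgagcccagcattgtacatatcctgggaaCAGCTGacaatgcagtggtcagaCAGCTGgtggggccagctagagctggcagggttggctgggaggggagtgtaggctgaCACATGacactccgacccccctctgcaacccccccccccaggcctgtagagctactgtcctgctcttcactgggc
Chrne, chr11:70619195-70619444, minus strand: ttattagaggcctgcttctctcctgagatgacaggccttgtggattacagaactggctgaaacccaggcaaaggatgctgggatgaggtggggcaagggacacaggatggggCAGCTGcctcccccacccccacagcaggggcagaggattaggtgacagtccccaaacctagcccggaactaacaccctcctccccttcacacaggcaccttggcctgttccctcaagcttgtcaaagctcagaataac

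The Myog window held 2 matches, Chrna1 held 3, Chrng held 3, Chrnb1 (not shown) held 3, and Chrne held 1. Of 32851 windows of the same length in the table, 66.2% held at least 1 match, 31.8% at least 2 and 12.2% at least 3. The narrower motif CAGCTG, which is contained in CANNTG and also reads the same on both strands, occurred in 13% of windows. It was present 2 times in Chrna1, 2 times in Chrng and 1 time in Chrne, and it was in neither the Myog nor the Chrnb1 window. The matches are a description of the letters, and they occurred in the gene that fell as well as in those that rose.

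Myog itself, at chr1:134289989-134292548 on GRCm38, had the largest rise after Ankrd1 on the log2(FPKM + 1) scale. Its FPKM was 1.61, 1.61, 2.59 and 2.07 in C1 to C4 and 165, 218, 236 and 241 in D3a to D3d, a fold change of 6.18 ± 0.14 (adjusted p = 2.17e-08). Myf6, another myogenic factor and the one most abundant in adult fibres, rose from 90.4 ± 7.72 to 1103 ± 59.4 FPKM (SD, n = 4 each). Myod1 rose by 2.78 and Runx1, a transcription factor that protects denervated fibres, rose by 3.24. In all, 7 of the 12 myogenic regulators rose and none fell, with a median of 1.41, and with median-ratio scaling 6 rose and 1 fell. Myf5 was at 1.22 ± 0.087 FPKM at day 0 and 1.41 ± 0.339 at day 3 and did not pass the test (0.11 ± 0.11, adjusted p = 0.465).

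Other genes of the neuromuscular junction split. Musk, the kinase that organises receptor clusters, went from 7.84 to 12 FPKM at day 0 to 56.6 to 71.9 FPKM at day 3, with D3a the highest. Dok7, which activates MuSK, rose by 1.34, Ncam1 rose by 1.51 and Nes, an intermediate filament of the synaptic region, was at 13.1, 27.9, 23.6 and 19.9 FPKM in D3a to D3d against 8.21 to 10.1 FPKM. Ache, the enzyme that clears acetylcholine, fell by 1.91 and Colq, the collagen tail that anchors it, fell by 0.90. Of the 15 genes 6 rose and 2 fell.

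The class II histone deacetylases link nerve activity to Myog. Hdac4, which relieves the block on Myog, was at 1.88, 2.06, 2.57 and 2.37 FPKM at day 0 and 9.20, 7.72, 9.58 and 9.77 FPKM at day 3, a fold change of 1.65 ± 0.10 (adjusted p = 2.48e-06). Dach2, the repressor that HDAC4 in turn silences, was at 0.915 ± 0.142 FPKM at day 0 and 0.122 ± 0.0138 FPKM at day 3, a change of -0.77 ± 0.07. Dach1 fell by 0.68. Hdac5 stood at 7.90 FPKM at day 0 and 5.37 FPKM at day 3 (-0.49, under the fold threshold). Exons of Hdac4 and of Gm26720 on the opposite strand overlap over 3536 bases, and whether counting used strand is not given in the sources used here. Such overlaps, all of them shorter, also touch, among others, Ache, Bhlhe41, Casq1, Cdkn1a, Clcn1, Dbp, Gabarapl1, Gadd45a, Gdf5, Mb, Myh2, Myh7, Ncam1, Ostn, Pycard, Runx1, Shh and Sqstm1, whose values are uncertain to that extent.

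**Figure D2:**
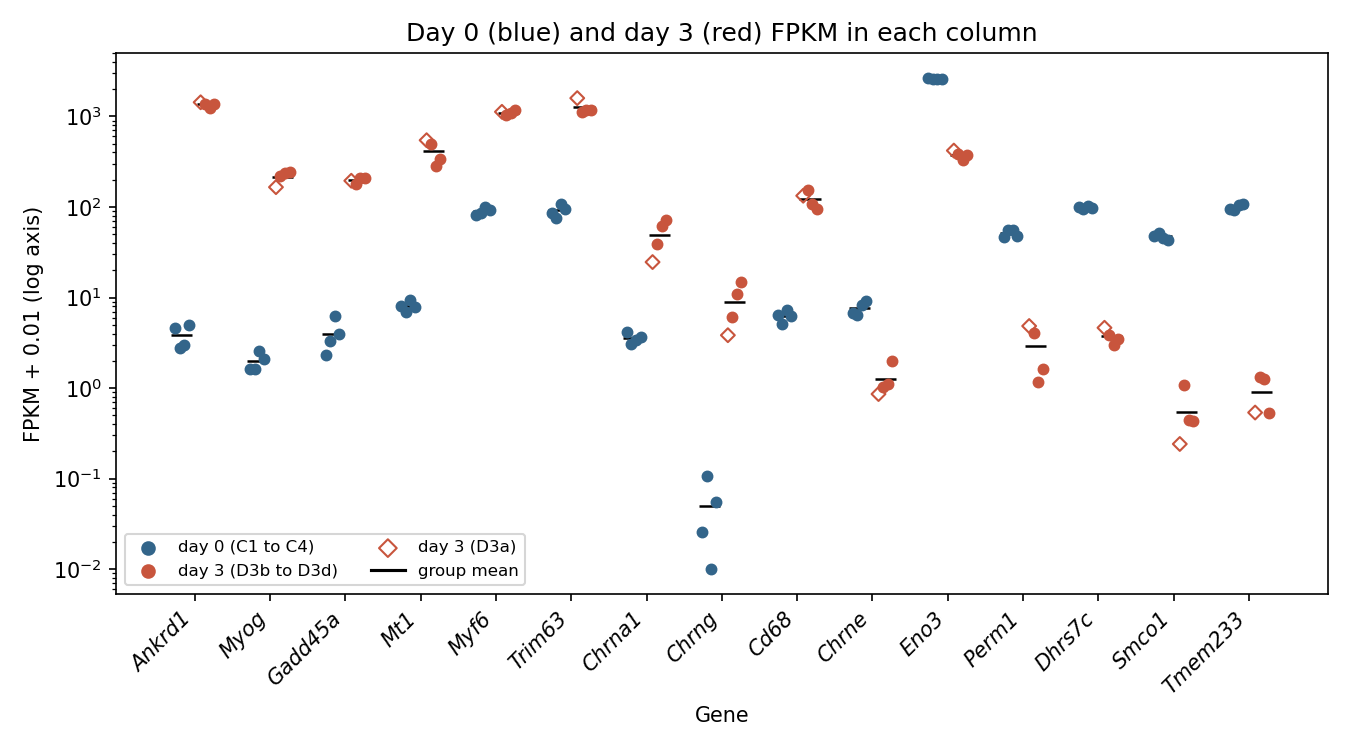
FPKM + 0.01 on a log axis for 15 genes in each of the 8 samples, with day 0 in blue, day 3 in red, D3a as an open diamond and bars at the group means. In every gene shown the day 3 points lie wholly above or wholly below the day 0 points, and the groups are furthest apart for Ankrd1 among the genes that rose (1248 to 1431 against 2.79 to 4.96).

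Genes tied to titin and to stretch sensing in the sarcomere included the largest rise. Ankrd1, an ankyrin repeat protein bound to titin and to transcription factors, had the largest rise of all called genes on the log2(FPKM + 1) scale, from 4.59, 2.79, 3.02 and 4.96 FPKM in C1 to C4 to 1431, 1376, 1248 and 1387 FPKM in D3a to D3d (8.16 ± 0.15, adjusted p = 9.17e-09). It lies at chr19:36111961-36120099. Xirp1, a protein of remodelling myofibrils, rose by 3.08, Flnc (filamin C) rose by 2.95 and Ankrd2 rose by 2.94. Among the 11 genes of this group 7 rose, and Fhl3, a LIM domain protein, fell by 1.35.

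Most fast-fibre genes and 7 of 12 slow-fibre genes fell. Myh4, the fast IIb myosin, went from 5531 ± 1043 to 2301 ± 409 FPKM, Myh2 (IIa) from 440 ± 106 to 74.2 ± 37.5 and Myh7 (slow) from 30.8 ± 11.3 to 3.84 ± 1.89. Of 15 fast-fibre genes 12 fell and none rose (median -1.26), and among the slow-fibre genes none rose (median -1.29). The slow-fibre sum varied within day 0, at 1765, 1367, 798 and 727 FPKM in C1 to C4, and was 315 to 613 at day 3. After quantile normalization 8 of the fast-fibre genes fell. Myh4 did not keep its call after quantile normalization (-0.37, adjusted p = 0.169). Casq1, the calcium buffer of the sarcoplasmic reticulum, was at 650 to 727 FPKM at day 0 and at 57.8, 66.4, 97.1 and 101 FPKM in D3a to D3d. Titin (Ttn) was at 57.8 ± 11.1 and 62.2 ± 7.62 FPKM and did not pass the test (0.12 ± 0.15).

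Embryonic myosin, Myh3, rose as the adult myosins fell. It stood at 0.996, 1.22, 0.573 and 0.426 FPKM at day 0 and 16.8, 41.6, 47.5 and 83.3 FPKM in D3a to D3d (4.56 ± 0.40, adjusted p = 1.68e-05). Myl4, the embryonic light chain, rose by 2.11 and Tnnt2, the cardiac troponin T of developing muscle, rose by 0.95. The neonatal myosin Myh8 was at 0.227 ± 0.0911 and 0.395 ± 0.195 FPKM and did not pass the test. Actc1 fell by 1.84 and Myh7b fell by 0.70, so that 3 of these 8 genes rose and 2 fell.

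Channels and the calcium release machinery changed in both directions. Kcnn3, the apamin sensitive potassium channel, rose by 2.99, Sln (sarcolipin) rose by 2.34 and Cacng1 rose by 2.03. Clcn1, the chloride channel that steadies the membrane, fell by 1.96, Kcnc1 fell by 2.11 and Jph2, which ties the T-tubule to the reticulum, fell by 1.99. Dhrs7c, an enzyme of the sarcoplasmic reticulum, showed the largest fall of this group, from 99.6, 95.6, 102 and 98.4 FPKM to 4.63, 3.85, 2.95 and 3.44 FPKM. Of 20 genes 5 rose and 11 fell.

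Tmem233, a membrane protein, had the largest fall on the log2(FPKM + 1) scale. It went from 94.5, 91.9, 106 and 107 FPKM in C1 to C4 to 0.527, 1.33, 1.24 and 0.526 FPKM in D3a to D3d (-5.75 ± 0.15, adjusted p = 3.33e-08). Smco1 fell by 5.00 and Ky, whose loss causes kyphoscoliosis in mice, fell by 4.96. Mettl21c, a methyltransferase of muscle, fell by 4.47, Ostn, a hormone secreted by muscle, fell by 3.60 and Ddit4l, an inhibitor of mTOR, fell by 3.59. A second gene ID that carries the symbol Aldoa fell by 4.84, and its reads could be shared with the main aldolase A gene, so this value is uncertain.

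In the lists of energy metabolism more genes fell than rose. Eno3, the muscle enolase, went from 2681, 2593, 2561 and 2587 FPKM to 419, 381, 330 and 372 FPKM (-2.80 ± 0.10). Tpi1 fell by 2.83, Pfkfb1 fell by 2.88 and Ldhb fell by 3.39. Of 31 genes of glycolysis and glycogen 16 fell and 3 rose. The 3 that rose were Gbe1 (1.66 ± 0.10) and Ugp2 (1.49 ± 0.15), which make glycogen, and Pgam1 (0.63 ± 0.20, adjusted p = 0.0294), whose call was lost with median-ratio scaling. Gapdh, often used as a reference gene, fell by 0.68, from 194 to 200 FPKM down to 108 to 143 FPKM.

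In mitochondria, 47 of 71 nuclear respiratory chain genes fell and none rose (median -0.67), among them Cox7a1 (-1.78 ± 0.11) and Cox8b (-1.46 ± 0.13). With median-ratio scaling 63 fell, and with TPM 24 fell and 1 rose. Without D3a 50 fell and 1 rose. Of the 13 protein genes of the mitochondrial genome 7 fell, or 4 with TPM. Of 34 genes of fatty acid oxidation and the TCA cycle 14 fell (10 with TPM, 22 with quantile normalization), with Idh2 falling by 3.09. Acadl and Hadhb rose by 0.78 and 0.62, neither kept its call with median-ratio scaling, and Hadhb lost it without D3a as well. Perm1, a muscle partner of PGC-1 and ERR, went from 46.7, 55.7, 55.3 and 47.5 FPKM to 4.84, 4.06, 1.15 and 1.60 FPKM (-3.86 ± 0.30), and 6 of the 11 regulators of this pathway fell.

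Polyamine genes moved in both directions. Amd1, which makes the aminopropyl donor, went from 397 to 742 FPKM at day 0 to 40.1 to 59.8 FPKM at day 3 (-3.50 ± 0.19) and Smox, which oxidises spermine, fell by 3.10. Odc1, the first enzyme of the pathway, rose by 2.06 and Srm, the spermidine synthase, rose by 1.17. Of 12 genes 4 rose and 4 fell, and with median-ratio scaling or quantile normalization 2 rose and 6 fell.

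Among genes of protein breakdown the proteasome subunits rose most often as a list, and the ubiquitin ligases were mixed. Trim63, the ubiquitin ligase MuRF1 that tags contractile proteins, was at 86.6, 76.1, 107 and 95.6 FPKM at day 0 and 1590, 1114, 1168 and 1184 FPKM in D3a to D3d (3.77 ± 0.14, adjusted p = 1.27e-07). D3a lay well above the other day 3 samples, and the change without it was 3.66. Fbxo32, the ligase atrogin-1 that is commonly followed beside MuRF1, was at 0.791, 0.807, 1.14 and 0.894 FPKM at day 0 and at 1.32, 0.480, 0.889 and 1.04 FPKM in D3a to D3d. The groups overlapped and the gene did not pass the test (0.00 ± 0.14, adjusted p = 0.989), and 84 to 121 fragments lay behind each day 0 value. Mean FPKM of Fbxo32 stayed between 0.907 and 1.43 over all 8 time points, a low level for a gene known to be abundant in muscle, so whether these values capture its transcript is uncertain. Fbxo30, the ligase known as MUSA1, rose by 1.31, Fbxo31 rose by 1.19 and Mdm2 rose by 0.94. Of 19 muscle ubiquitin ligases 6 rose and none fell, and with median-ratio scaling 4 rose and 1 fell.

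Proteasome subunits rose nearly as a whole. Their summed FPKM was 1576 to 1670 at day 0 and 5361, 4047, 4123 and 4457 in D3a to D3d, and 34 of 37 passed with a median of 1.45. Psmd11 rose by 2.18, Psmc4 rose by 2.04 and Psmd4 and Psmd8 each rose by 1.93. Of 27 autophagy genes 10 rose and 1 fell (6 and 1 with median-ratio scaling), among them Gabarapl1 (1.96 ± 0.14), Sqstm1 (1.57 ± 0.11) and Bnip3 (1.44 ± 0.17). Ulk2 fell by 0.67. Lysosomal genes are described after the macrophage genes.

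Genes that build ribosomes rose alongside. In ribosome biogenesis 29 of 30 genes rose (median 1.23), led by the transcription factor Myc, which went from 1.88 ± 0.455 to 14.9 ± 1.57 FPKM. Of 79 cytosolic ribosomal protein genes 69 rose and none fell, with a median of 0.80. With median-ratio scaling 22 of the 30 and 32 of the 79 rose. Rpl3 rose by 2.38, more than any other ribosomal protein gene, from 34.4 ± 4.61 to 185 ± 30.8 FPKM.

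Stress genes rose in several classes. Gadd45a, which promotes fibre atrophy, went from 2.28, 3.30, 6.28 and 3.93 FPKM to 195, 181, 209 and 208 FPKM (5.39 ± 0.20, adjusted p = 1.30e-07). Its relatives Gadd45b and Gadd45g fell by 1.08 and 1.39. Cdkn1a, the cell cycle inhibitor p21, rose by 4.17, Eda2r rose by 3.64 and Btg2 rose by 3.06, and 10 of 18 p53-linked and Gadd45 genes rose and 3 fell. Of 22 Atf4 target genes 14 rose and none fell, with Eif4ebp1, the brake on translation, rising by 3.39 and Ddit4 rising by 2.42. With median-ratio scaling 11 rose and 2 fell.

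Chaperones of both the endoplasmic reticulum and the cytosol rose. Hspa5 (BiP) went from 48.9 ± 2.48 to 174 ± 8.49 FPKM, and 15 of 17 reticulum chaperone genes rose. Of 22 heat shock genes 15 rose, led by the small heat shock proteins Hspb8 (3.23 ± 0.10), Hspb1 (2.95 ± 0.12) and Hspb7 (2.62 ± 0.19), and Hspb6 fell by 0.86. The metallothionein Mt1, a zinc-binding protein, was at 6.99 to 9.41 FPKM at day 0 and at 545, 491, 282 and 341 FPKM in D3a to D3d. Serpina3n rose by 4.36 and Lcn2 rose by 3.75, and 7 of 8 acute-phase and metallothionein genes tested rose.

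Among growth factors and receptors, Gdf5, a BMP ligand that restrains denervation atrophy, was at 0 to 0.109 FPKM at day 0 (0 to 4 fragments) and at 12.1, 10.5, 13.4 and 14 FPKM in D3a to D3d. The BMP target Id1 rose by 1.45. Mstn (myostatin) fell by 1.15 and its receptor gene Acvr2b fell by 1.12. Of 25 genes of this group 4 rose and 2 fell, close to the shares of all genes tested (16.3% and 7.5%), and without D3a 10 rose and 2 fell. In the insulin-like growth factor group 10 of 19 rose and 2 fell, with Akt1 rising by 1.88, but with median-ratio scaling 3 rose and 4 fell. Of 25 cytokine, chemokine and receptor genes 11 rose and 1 fell (median 0.51), and with median-ratio scaling or quantile normalization 11 rose and 3 fell. Tnfrsf12a, the TWEAK receptor Fn14, was at 8.87 to 18.7 FPKM at day 0 and at 157, 148, 171 and 171 FPKM in D3a to D3d (3.56 ± 0.22).

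Clock genes moved in both directions. Per1 rose by 2.16 and Per2 rose by 0.94, while Dbp fell by 1.95 and Bhlhe41 fell by 1.32. Of 19 genes 8 rose and 4 fell, and with median-ratio scaling 7 rose and 6 fell. The hour at which each muscle was taken is not given in the labels, so its part in these values was not tested.

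**Figure D3:**
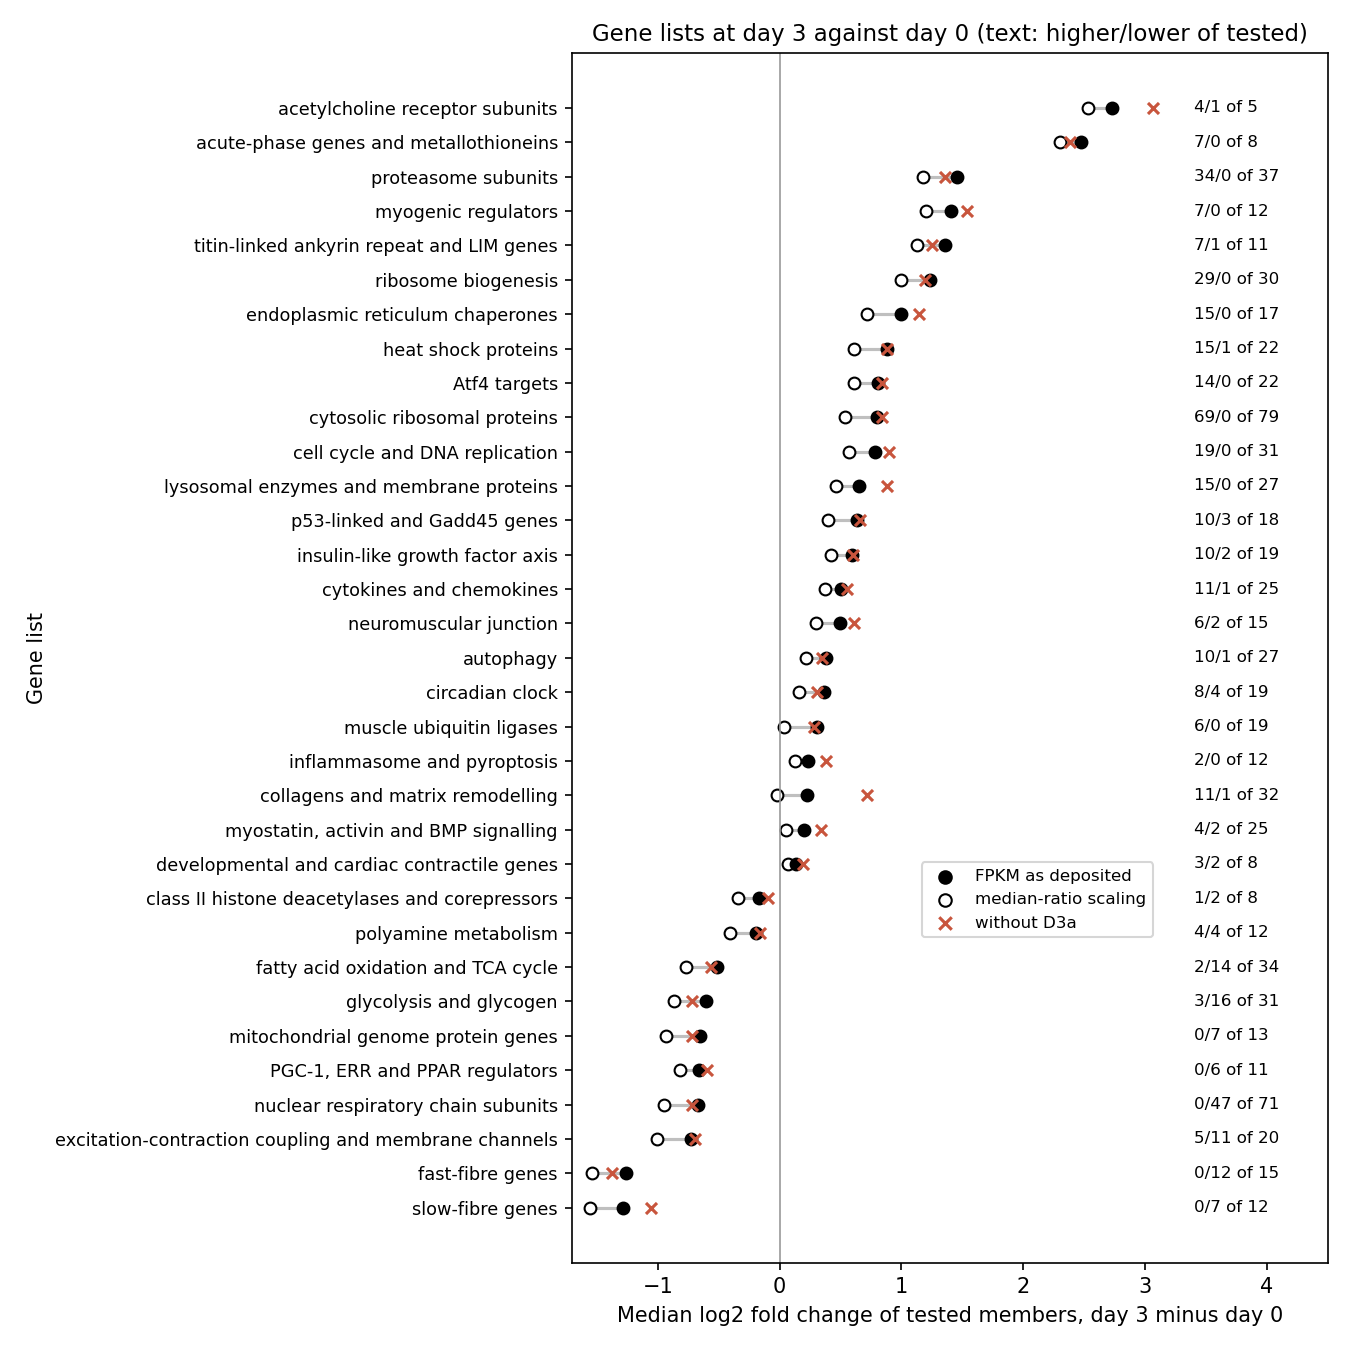
Median log2 fold change (day 3 minus day 0) of the tested genes in 33 gene lists, with black points for FPKM as deposited, open points for median-ratio scaling and crosses for the fit without D3a. The numbers at the right give the genes that rose and fell out of those tested. Proteasome subunits stand at 1.45 with 34 of 37 genes higher, and slow-fibre genes at -1.29 with 7 of 12 lower.

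The study followed an inflammasome pathway with other assays and in its RNA-seq. It found genes of NLRP3 inflammasome assembly enriched among those upregulated in atrophied muscle at 14 d and later. It also related NLRP3 levels to those of caspase 1, GSDMD and IL-1β in the RNA. The rise it reported from 14 d on lies outside the times compared here. At day 0 and day 3 the genes of the pathway's core were low in the RNA. Nlrp3, the sensor, was at 0.0165 to 0.124 FPKM at day 0 (1 to 8 fragments) and at 0.0644, 0.339, 0.303 and 0.161 FPKM in D3a to D3d (0.19 ± 0.08, adjusted p = 0.0870). Casp1 was at 0.901 ± 0.277 and 1.28 ± 0.49 FPKM, Gsdmd at 3.04 ± 0.0470 and 3.85 ± 1.30, and Pycard (ASC) at 0.180 ± 0.0740 and 0.447 ± 0.249, and none of them passed the test. Il1b was at 0 to 0.103 FPKM at day 0 (0 to 3 fragments) and 0.171 to 0.612 FPKM at day 3. It stayed under the fold threshold at 0.40 ± 0.11 (adjusted p = 0.0133), and with a pseudocount of 0.1 it passed at 1.62, but it entered the test only through its day 3 values. Il18 was at 1.82 ± 0.195 and 2.13 ± 0.690 FPKM. Of the 12 genes of this group 2 rose, close to the 16.3% of all genes tested. They were the pannexin channel Panx1 (2.96 ± 0.12) and Casp4 (1.04 ± 0.12). The list also holds more abundant genes with other roles, of which Txnip, a thioredoxin inhibitor named here after its values were seen, was at 167 to 186 FPKM at day 0 and 111 to 167 FPKM at day 3 (-0.42, under the fold threshold). Without D3a, Nlrp3 stood at 0.25 (adjusted p = 0.018), still under the fold threshold.

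Macrophage genes were well above day 0 in 3 of the 4 day 3 samples. Their summed FPKM was 197 to 289 at day 0, 363 in D3a and 701 to 1337 in D3b to D3d, and 14 of 18 genes rose, or 17 of 18 without D3a. C1qb, a complement subunit made by macrophages, was at 26.4, 19.2, 24.1 and 22.9 FPKM at day 0, at 25.4 FPKM in D3a and at 121, 124 and 69.6 FPKM in D3b, D3c and D3d. D3a thus lay inside the day 0 range for this gene. Cd163, a scavenger receptor, also lay inside the day 0 range in D3a (9.91 FPKM, against 6.22 to 10.2 at day 0 and 23.7 to 45.6 in the others). Mpeg1, a pore-forming protein of phagocytes, lay just above it (3.30 FPKM, against 2.02 to 2.99 at day 0 and 9.13 to 23.5 in the others). Cd68 did not, with 133 FPKM in D3a and 94.1 to 155 FPKM in the others against 5.12 to 7.30 FPKM at day 0.

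The matrix genes separated D3a further. The summed FPKM of 32 collagen and matrix genes was 726 to 881 at day 0, 426 in D3a, below every day 0 sample, and 1097 to 1608 in D3b to D3d. With all samples 11 rose and 1 fell (11 and 4 with median-ratio scaling, 11 and 3 with quantile normalization), and without D3a 18 rose and 1 fell. Timp1, an inhibitor of matrix proteases, rose by 3.96, Spp1 (osteopontin) rose by 2.98 and Lox, which cross-links collagen, rose by 2.44. Col15a1 fell by 1.09 with all samples and by 0.72 without D3a. Of 27 lysosomal genes 15 rose, or 20 without D3a. Members differed in D3a: the cathepsin gene Ctss, strongly expressed in macrophages, was at 13.8 FPKM there and at 38.6 to 106 FPKM in the other day 3 samples, whereas Ctsl, another cathepsin, was at 60.1 FPKM and at 54.9 to 74.2 FPKM. Whether macrophage number had a part in the lysosomal counts was not tested.

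To ask which changes D3a shared, genes were called without it and D3a was then compared with the day 0 samples. Of the 3388 genes that rose without D3a, D3a lay above all 4 day 0 samples in 2753 (81.3%), against 35.2% of all genes tested. Of the 1238 that fell, D3a lay below all 4 in 1207 (97.5%), against 38.4% of all genes. Both steps use the same 4 day 0 samples, which by itself favours overlap. The shares over all genes are therefore a description and not the value expected without a shared change. D3a lay above day 0 in all 34 proteasome genes, all 71 ribosomal protein genes, all 29 ribosome biogenesis genes, all 7 myogenic regulators and all 4 receptor subunit genes that rose without it. It did so in 5 of 17 macrophage genes, 9 of 18 matrix genes and 13 of 20 lysosomal genes. Of 11 fibro-adipogenic progenitor markers 2 fell and none rose (1 fell and 2 rose without D3a, 4 fell with median-ratio scaling, none fell and 1 rose with TPM), and they summed to 1156 to 1386 FPKM at day 0, 751 in D3a and 898 to 1082 in D3b to D3d. Whether the cell make-up of that muscle, its dissection or its surgery differed was not tested.

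**Figure D4:**
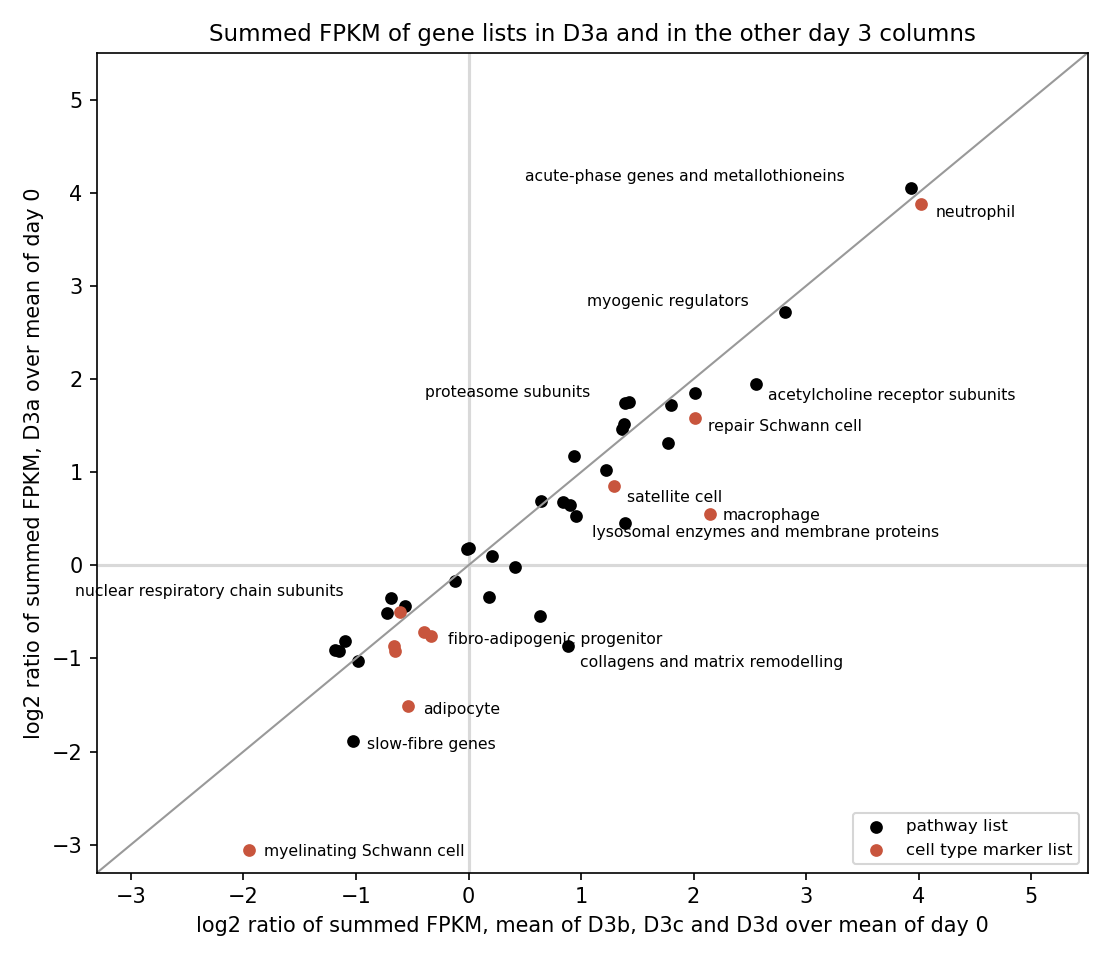
Log2 ratio of the summed FPKM of each gene list to the day 0 mean, for the mean of D3b to D3d (horizontal) and for D3a (vertical), with the diagonal marking equal ratios and the near-zero T cell and retina lists left out. The myogenic and acute-phase lists lie near the diagonal, and the macrophage, lysosomal and matrix lists lie below it (the matrix sum was 1.84 times day 0 in D3b to D3d and 0.547 times in D3a).

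Genes of Schwann cells, which wrap the cut axons, changed in both directions. Ngfr, the p75 receptor of repair Schwann cells, was at 0.256 to 0.584 FPKM at day 0 and at 5.87, 15.3, 17.8 and 9.06 FPKM. Of 9 myelinating Schwann cell genes 5 fell and 1 rose (the cadherin Cdh19, 1.18 ± 0.22), and without D3a 5 fell and 3 rose. Their summed FPKM varied within day 0, at 248, 288, 149 and 135 in C1 to C4. It was 24.6, 59.9, 63.0 and 36.1 in D3a to D3d. Of 8 repair Schwann cell genes 5 rose and none fell, or 7 without D3a. Gdnf, a factor that keeps motor neurons alive, rose by 1.67. Shh was at 0 to 0.0460 FPKM at day 0 and at 0.413, 4.51, 2.57 and 0.562 FPKM in D3a to D3d (1.32 ± 0.39), and it lost its call without D3c.

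Proliferation genes rose in the whole muscle, with 19 of 31 higher (24 without D3a). Rrm2, which makes deoxynucleotides, went from 0.574 ± 0.0798 to 10.8, 25.6, 9.31 and 17.1 FPKM in D3a to D3d. Mki67, a marker of cycling cells, was at 0.293 ± 0.0541 FPKM at day 0 and at 0.578, 3.94, 3.77 and 2.43 FPKM, with D3a far below the others. Of 8 satellite cell genes 2 rose and none fell (median 0.10, or -0.05 with median-ratio scaling), beside 16.3% of all genes tested that rose. Sdc4 rose by 1.63 and Cdh15 rose by 0.87, while Pax7 was at 0.606 ± 0.0885 and 0.445 ± 0.122 FPKM (-0.16 ± 0.08).

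Markers of other cell types differed in direction. Of the 7 neutrophil genes listed 4 were tested and were called higher, S100a8 having passed the filter only with its day 3 values, and the list summed to 1.33 to 2.33 FPKM at day 0, 25.8 in D3a and 19.7 to 33.1 in D3b to D3d, of which S100a8 gave 12.8 to 21.7 at day 3, and the defining marker Ly6g was at 0 in all 8 samples. T cell genes summed to at most 1.45 FPKM in any sample. Endothelial genes summed to 127 to 143 FPKM at day 0 and 82.3 to 114 at day 3, with 3 of 10 lower (6 with median-ratio scaling, 1 with TPM), of which Kdr (-1.16 ± 0.14) kept its call without D3a and Cdh5 and Tek did not, while Egfl7 (named after its values were seen) gained one (-0.59 without D3a). Of 7 mural cell genes Rgs5 fell by 0.96 and the others did not pass, while 3 fell with median-ratio scaling. Adipocyte genes summed to 221 to 378 FPKM at day 0 and 99.3 to 299 at day 3, and 3 of 7 were called lower, of which Cfd lost its call without D3a (-1.11, adjusted p = 0.0642). Of 5 erythroid genes, the hemoglobins and Alas2 among them, 2 were called lower, but 1 without D3a, 0 with TPM or in the fit of all 32 samples, 3 with median-ratio scaling and 4 with quantile normalization, and in none were the groups apart. They summed to 226 to 492 FPKM at day 0 and 181 to 314 at day 3.

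Day 3 was then compared with day 1 and day 5 in a fit of all 32 samples, in which 22071 genes were tested and whose spread is shared over all time points. Against day 1, 1464 genes were higher at day 3 (6.63%) and 867 were lower (3.93%). Against day 5, 452 were higher (2.05%) and 820 were lower (3.72%), and 585 were lower without D3a. Between day 1 and day 3 neither Trim63 (0.30, adjusted p = 0.105) nor Serpina3n (-0.17, adjusted p = 0.635) passed the test. Ankrd1 was 6.25 higher at day 3 than at day 1 and 1.32 higher than at day 5.

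The receptor genes that rose were between their day 1 and day 5 levels. Chrna1, Chrnd and Chrng were 3.08, 2.78 and 3.14 higher than at day 1 and 1.41, 1.36 and 0.85 lower than at day 5. Chrne was lower at day 3 than at each other time point. Its mean was 4.34 FPKM at day 1, 1.24 at day 3 and 3.78 at day 5. By day 14 it stood at 7.87 FPKM, beside 7.61 at day 0. Of the 79 ribosomal protein genes 74 were higher than at day 1 and none differed from day 5 by the threshold, and of 37 proteasome genes 27 were higher than at day 1 and 4 were higher than at day 5. Fast-fibre genes were lower than at day 1 in 10 of 15 and lower than at day 5 in 5. Myh2 was 3.14 lower at day 3 than at day 5.

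At day 3, 127 genes (0.575%) were higher than at each of the 7 other time points and 119 (0.539%) were lower than at each. Of these, 115 and 97 were also found with median-ratio scaling, and 101 and 84 without D3a. Retreg1, a receptor for autophagy of the endoplasmic reticulum, had a mean of 70.5 FPKM at day 0, 245 at day 1, 648 at day 3, 83.6 at day 5 and at most 80.8 at any later time. Its day 3 values were 1023, 625, 448 and 496 FPKM in D3a to D3d. Plin2, which coats lipid droplets, went from 22.8 FPKM at day 1 to 79.5 at day 3 and 24.5 at day 5, and Zwint, a kinetochore protein, from 58.6 to 162 and 39.4. Xirp1, Krt80, Hoga1 and the microRNA entry Mir7212 also peaked at day 3.

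Other genes had a trough at day 3. Ddit4l had a mean of 62.9 FPKM at day 1, 5.35 at day 3 and 42.8 at day 5. Casq1 was at 350, 80.6 and 300 FPKM at those times. Mb (myoglobin, the oxygen store of the fibre) was at 1087, 351 and 1078 FPKM, and it then passed its day 0 mean of 1805 FPKM to reach 4656 FPKM at day 21. Tnmd and Nrep, with Tmem233 and the second Aldoa ID, had troughs as well. Samples of 1 time point may share a collection or library batch that the labels do not name, so a day and such a batch cannot be told apart.

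**Figure D5:**
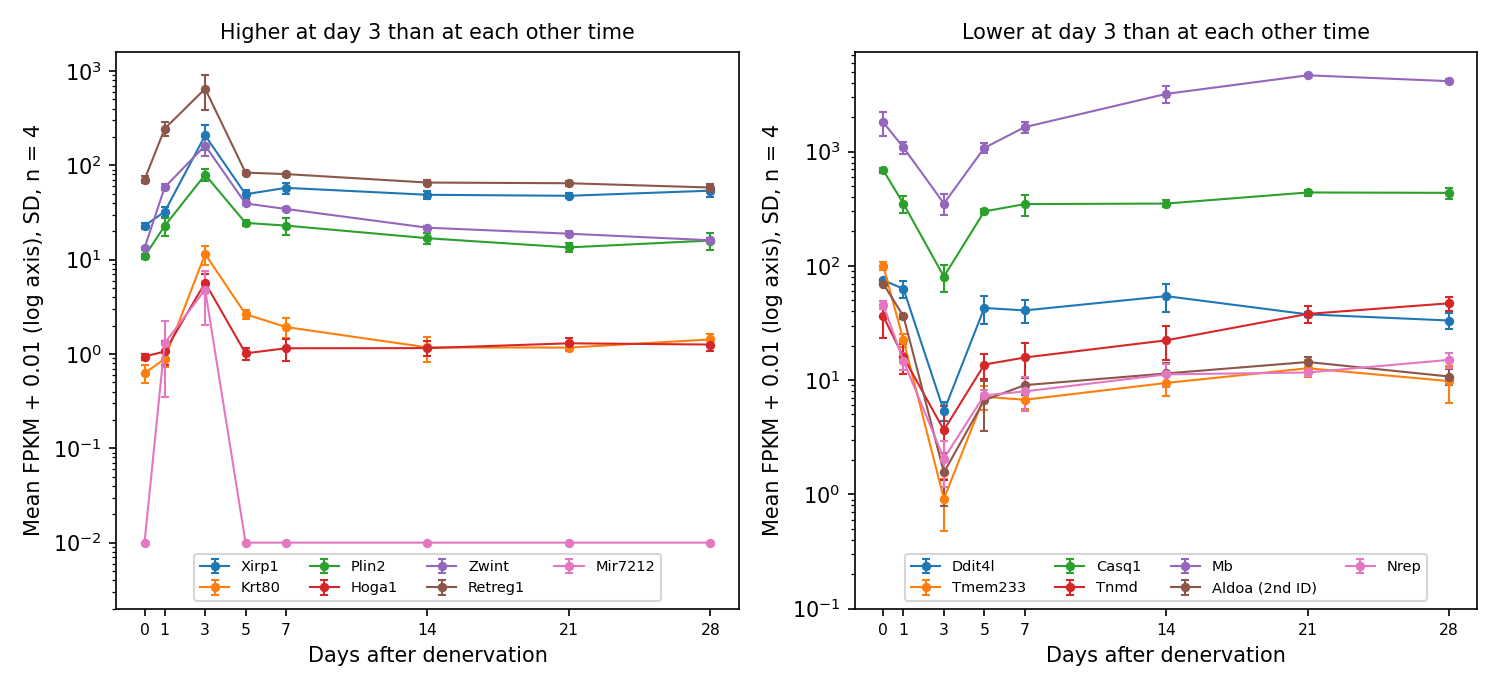
Mean FPKM + 0.01 on a log axis with SD (n = 4) against days after denervation for 7 genes above (left) and 7 below (right) all other time points at day 3. Each line turns at day 3, as for Retreg1 (648 FPKM at day 3 and 83.6 at day 5) and Ddit4l (5.35 at day 3 and 42.8 at day 5).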

How the data were processed

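RNA from GAS muscle was sequenced as 150-bp paired-end reads, and 8 of the 32 deposited samples (4 at day 0, 4 at day 3) carry the main comparison. The authors deposited FPKM values per gene. The submitters' processing notes name CASAVA, HISAT2 2.1.0, DESeq2 and build GRCm38, and the tool that counted fragments is not given in the sources used here. The library kit is given differently by the labels and the study's methods. Gene positions and exon lengths came from GENCODE M21, which matched 33356 of the 33397 gene IDs.

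Since the values are FPKM, tests were run with limma 3.58.1 (R 4.3.3) on log2(FPKM + 1), after a filter of 0.1 FPKM in 4 or more of the 8 samples, with no covariate. A gene was called when the Benjamini-Hochberg adjusted p over all genes tested was under 0.05 and the change was at least 1.5-fold. Comparisons with the other time points used a fit of all 32 samples. Tables and exact tests came from Python 3.11.15 with pandas 2.3.3 and numpy 2.4.6, and plots from matplotlib 3.10.9. Steps were tested on simulated data.

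Undoing the length and library scaling of FPKM gave whole fragments within 0.05 for 99.3% to 99.4% of values under 200 fragments, which gave the fragment totals (14925278 to 16875456 in the 8 samples). FPKM divides by a total that includes mitochondrial genes, whose share differed between the groups, so a second scaling (median ratio) was run beside it.

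Members and gene lists were chosen with earlier results of these data known. Named genes were the 12 largest rises and 12 largest falls with full separation, up to 4 called genes per direction in each list, all tested genes of lists of 8 or fewer, 8 peaks and 8 troughs at day 3, genes the study measured by other assays, and lone genes moving against their list. Some genes that this rule names are not reported here. Alternatives changed the scaling (TPM, median ratio, quantile, mitochondrial genes left out), the pseudocount, the filter, the threshold, the model (limma-voom on recovered fragments, array weights, no variance trend, all 32 samples) and the samples (each of the 8 left out in turn, and for the other time points each day 3 sample).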

Additional observations from a re-analysis of the deposited data

Results flagged for a closer look

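Within a group of 4, a sample was noted when its gap to the nearest other sample exceeded Dixon's 95% limit for the range of the group, a limit that chance passes in about 5% of groups. It was passed in 5 of 68 gene groups and 4 of 94 list groups. Serpina3n was at 6.76 FPKM in C1 and at 2.75 to 3.28 in the other day 0 samples. The second Aldoa ID was at 2.67 FPKM in D3d and at 1.08 to 1.31 in the other day 3 samples. Pycard was at 0.290 FPKM in C1, with 0.138 to 0.149 in the others, and Il18 was at 1.53 FPKM in C4, with 1.89 to 1.95 in the others. Trim63 was at 1590 FPKM in D3a and at 1114 to 1184 in D3b to D3d. The summed FPKM of proteasome subunits was 1670 in C1, above 1576 to 1586 in the other day 0 samples. The protein genes of the mitochondrial genome summed to 108600 FPKM in C3, below the other 3 day 0 samples. In D3a the myostatin, activin and BMP genes summed to 138 FPKM and the satellite cell genes to 40.3 FPKM, both below the other day 3 samples, the latter at 54.2 to 54.9.

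Time points also differed by a test of the difference itself. Between day 3 and day 1, 2331 genes passed, and between day 3 and day 5, 1272 genes passed.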

How the results depend on the processing

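No paired analysis was possible because the letters and numbers of the sample names in the expression table are not tied to the replicate numbers of the labels. No single gene named changed sign as a called value, but balances between directions did: median-ratio scaling turned the excess of rises over falls at day 3 into an excess of falls, and moved the median over all genes from 0.11 to -0.03 and that of the matrix list from 0.22 to -0.02. The insulin-like growth factor list went from 10 higher and 2 lower to 3 and 4. Against 2854 genes higher at day 3 than at day 0, TPM gave 4733, median-ratio scaling 1704, quantile normalization 1833, no fold threshold 5397 and a 2-fold threshold 1112. Against 1315 lower, a pseudocount of 0.1 gave 2054, median-ratio scaling 2052, limma-voom 2118, no fold threshold 2634 and 2-fold 554. Of the called genes with full separation, 2608 were higher (TPM 4224, median-ratio scaling 1572) and 1265 lower (pseudocount of 0.1 1918, median-ratio scaling 1979, limma-voom 1964). A pseudocount of 0.1 changed the day 1 comparison from 1464 and 867 to 2305 higher and 1720 lower. The 820 genes lower than at day 5 became 1983 with that pseudocount, 1515 with TPM and 544 with quantile normalization, and the 119 lower than at every other time became 313 with that pseudocount and 185 with TPM. The cause was not tested for TPM and quantile normalization. A pseudocount of 0.1 widens the fold of genes at low levels by construction.

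Leaving out 1 sample at a time gave 2615 to 3388 genes higher and 1238 to 1387 lower than at day 0, and 2524 to 3337 and 1206 to 1361 with full separation. With each day 3 sample left out in turn, and no sample of another time, the ranges were 1357 to 1877 and 812 to 936 against day 1, 430 to 482 and 585 to 1028 against day 5, and 127 to 144 and 94 to 156 against every other time. Full separation was not run with quantile normalization, without mitochondrial genes or at other thresholds, and the comparisons with other time points were not run with limma-voom, array weights, other filters or other thresholds. Single genes lost their call without D3a (Cdh5, Cfd, Hadhb, Tek) or with median-ratio scaling (Acadl, Hadhb, Pgam1), and Ctss, Shh and Alas2 lost it when a single other sample was left out. A lost call can mean only a change under the fold threshold. Acadl went from 0.78 to 0.51 with median-ratio scaling (limma adjusted p = 0.0114). Depth limits genes with few fragments, such as Nlrp3 with 1 to 8 at day 0.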
